A study of Mus musculus with 8 samples.

Results

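The renin-angiotensin genes of the mouse brain were described here as a set of 7 genes, taken by symbol from the authors' comparison table and read from the deposited expression table of 55385 genes. They were angiotensinogen (Agt), angiotensin-converting enzyme (Ace), the angiotensin receptor gene Agtr1a, its partner Agtrap, the aminopeptidase genes Enpep and Lnpep, and Atp6ap2. The genes were selected on measured values, since the iKO against WT differences of these same libraries were known when the set was proposed. For the 7 genes that contrast is therefore given as values, with no test.

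The cells were NSPCs, neural stem and progenitor cells, which had been isolated with a cell sorter out of P7 cortex (postnatal day 7). The 4 iKO libraries came from mice with Nestin-CreERT2, Ash2lf/f and tdTomato, and the 4 WT libraries from mice with Nestin-CreERT2 and tdTomato, so both groups carried the inducible Cre and the reporter. The floxed gene encodes ASH2L, which histone H3 methyltransferases of the MLL and SET1 type need for full activity. The Nestin promoter drives the Cre, and no source used here gives the sorting gate, the time of induction or the number of animals behind a library.

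In the classical system renin, a protease released mainly by the kidney, cuts the secreted protein angiotensinogen into angiotensin I. ACE trims angiotensin I to angiotensin II, which acts on the AT1 receptor, and aminopeptidases then shorten angiotensin II further. In the brain, angiotensinogen is made chiefly by astrocytes. Where brain renin activity comes from is debated, and other proteases can act on the same peptides.

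The promoters of 3 genes are shown because Agt had the largest group difference of the set and because its promoter differs in composition from those of Enpep and Atp6ap2. Each line gives the 250 bases before the RefSeq start on GRCm38.p6, 5′ to 3′ on the gene's own strand. Capitals mark CG dinucleotides and the letters TATAAA, or TTTATA, which is TATAAA on the other strand. The Agt stretch is chr8:124569707-124569956 (minus strand), that of Enpep chr3:129332750-129332999 (minus strand) and that of Atp6ap2 chrX:12587509-12587758 (plus strand).
Agt: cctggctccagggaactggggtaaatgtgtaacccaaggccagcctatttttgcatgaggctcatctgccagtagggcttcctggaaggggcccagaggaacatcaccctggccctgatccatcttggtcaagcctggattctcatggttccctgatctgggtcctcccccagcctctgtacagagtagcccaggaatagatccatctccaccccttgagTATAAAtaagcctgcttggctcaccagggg
Enpep: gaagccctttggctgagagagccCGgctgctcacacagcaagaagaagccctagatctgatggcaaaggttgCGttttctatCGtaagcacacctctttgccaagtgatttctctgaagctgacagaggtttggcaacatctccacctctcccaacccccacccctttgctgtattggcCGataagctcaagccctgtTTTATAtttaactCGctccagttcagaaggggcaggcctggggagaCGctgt
Atp6ap2: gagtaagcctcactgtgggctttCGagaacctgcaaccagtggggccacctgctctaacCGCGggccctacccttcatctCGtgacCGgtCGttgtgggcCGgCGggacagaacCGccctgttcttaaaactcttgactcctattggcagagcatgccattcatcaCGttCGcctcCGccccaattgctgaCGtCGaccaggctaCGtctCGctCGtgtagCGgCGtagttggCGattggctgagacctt

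The Agt stretch held 0 CG dinucleotides at a GC content of 55.6%, and 7.87% of 32851 promoters of the same length held none. TATAAA began 30 bases before the Agt start, on the gene's own strand. Enpep and the first Ace start had it on the other strand. Of those promoters, 12.4% held TATAAA on either strand anywhere in the 250 bases. That share is no measure of how often it lies where it does in Agt. The stretch of Atp6ap2 held 20 CG dinucleotides, that of Lnpep 25, that of Agtrap 12 and that of Enpep 6, against a median of 6 over all promoters. Ace has 2 RefSeq starts, with 19 CG dinucleotides before the first and 1 before the second, and the gene-level values do not separate them. RefSeq matched 6 of the 7 genes in the promoter table, and Agtr1a was not matched. No histone mark was measured in these samples, so the letters are a description of the sequence.

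The targeted gene, Ash2l, stood at 17.6 ± 1.33 TPM in WT and 7.13 ± 0.714 TPM in iKO (SD, n = 4 each), where TPM is an abundance corrected for the length of each transcript and brought to the same total in each library. Its log2(TPM + 1) difference was -1.20 (limma adjusted p = 3.82e-06). Over all 16413 genes tested, 52.6% were called changed at an adjusted p under 0.05, 20.7% higher and 31.9% lower in iKO, and the groups did not overlap for 49.2%. The calls were 3392 higher and 5237 lower, against 4284 higher and 4225 lower with median-ratio scaling. The median log2(TPM + 1) difference was -0.06. Each library had 16089 to 16616 genes at 1 TPM or more. TPM keeps no sequencing depth. The stem and progenitor genes Nes, Vim and Fabp7 were present in every library, at 56.1, 234 and 640.2 TPM or more. Other markers of that list were low: Sox2 stood at 6.33 to 8.63 TPM, and Hopx, at 0.389 to 1.48 TPM, failed the filter. In WT the 14 listed markers summed to 2657 to 2692 TPM, and 18 astrocyte markers to 12221 to 12574 TPM. Y-linked transcripts differed between the groups: the 4 listed genes summed to 135 to 163 TPM in WT and 53.9 to 73.4 TPM in iKO. The part of the animals' sex in this difference was not tested.

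Of the 7 genes, 5 had groups that did not overlap (Agt, Ace, Agtr1a, Lnpep and Atp6ap2), in each case with all iKO libraries below all WT libraries. For all tested genes the share lower in iKO without overlap was 29.9%. For Agtrap and Enpep the groups overlapped. The filter of at least 1 TPM in at least 4 libraries was passed by 6 of the genes, and Ace did not pass it. Because the genes were chosen with this contrast known, nothing is read from the count.

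**Figure D1:**
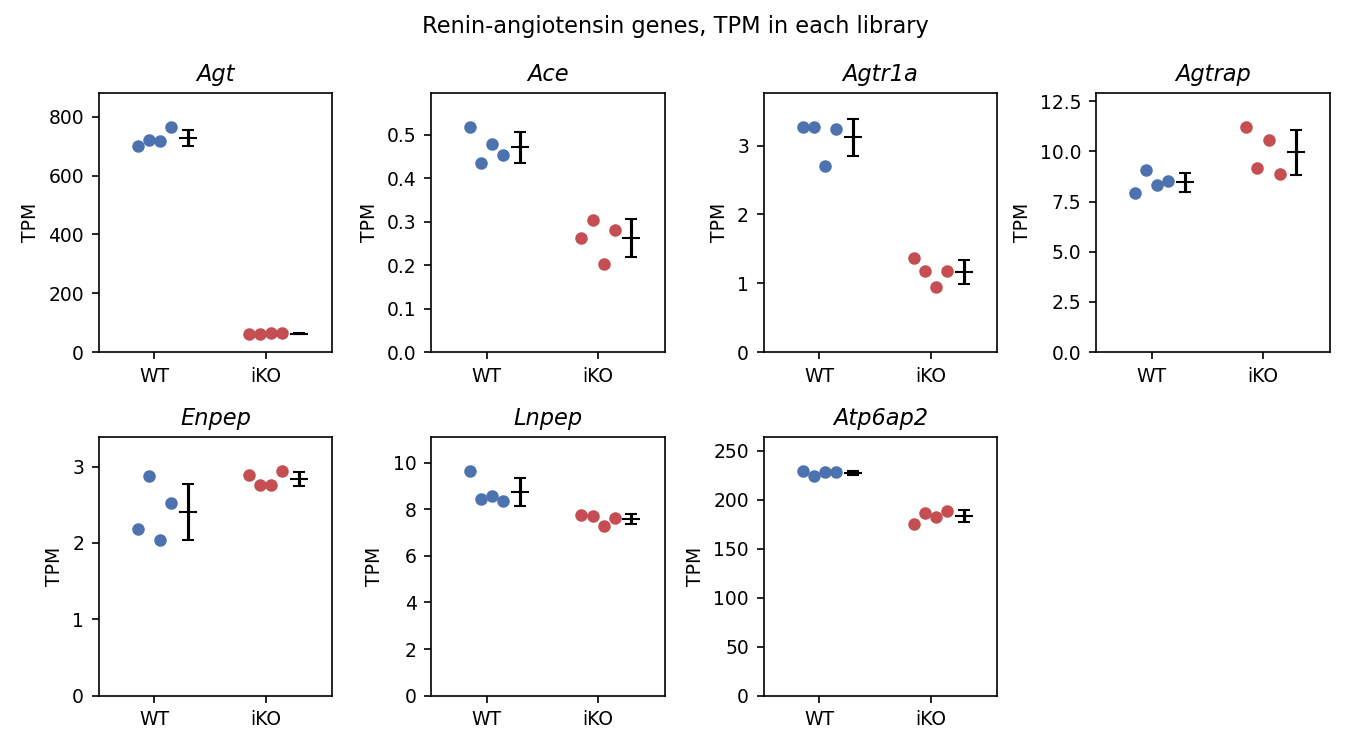
TPM of each of the 7 genes in the 4 WT and 4 iKO libraries, one point per library, with the group mean and SD as a bar beside the points and each vertical axis starting at 0. Agt lies at 700.3 to 764 TPM in WT and at 60.2 to 65.5 TPM in iKO, while the points of Agtrap and Enpep overlap between the groups.

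Agt, the precursor of every angiotensin peptide, stood at 700.3, 723, 718 and 764 TPM in WT replicates 1 to 4. In iKO replicates 1 to 4 it stood at 60.9, 60.2, 64.8 and 65.5 TPM. Every iKO library was far below every WT library, and the libraries of a group lay close together, with a coefficient of variation of 3.74% in WT and 4.29% in iKO. The iKO mean was 8.65% of the WT mean, an 11.6-fold lower level. The log2(TPM + 1) difference was -3.51 (SE 0.0366), the 16th lowest of 16413 tested genes. In the authors' deposited table the log2 fold change was -3.47 (SE 0.0406), at a mean normalized signal of 6127. In WT, Agt was the most abundant of the 7 genes, and in iKO it came second after Atp6ap2.

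Astrocyte markers were also lower in iKO. Of 18 markers tested, 15 fell and 1 rose, where 31.9% of all genes tested were called lower and 20.7% higher. The summed level of the list was 12221 to 12574 TPM in WT and 8865 to 9176 TPM in iKO. Gjb6, a connexin gene of astrocytes, fell from 119 to 30.7 TPM (limma adjusted p = 2.41e-07) and Glul, the glutamine synthetase gene, from 316 to 153 TPM (limma adjusted p = 2.40e-09). S100b rose from 8.61 to 10.8 TPM (limma adjusted p = 0.00681), and Aldh1l1 (239 TPM in WT and 234 TPM in iKO) did not pass the test. Relative to the summed astrocyte list, Agt stood at 5.69 to 6.08% in WT and 0.66 to 0.714% in iKO, which was 8.49-fold lower. Relative to the summed list of stem and progenitor markers it stood at 26.4 to 28.6% in WT and 2.17 to 2.38% in iKO. In bulk RNA, fewer cells of a type and less RNA per cell cannot be told apart. Hepatocytes also make angiotensinogen, and their markers Alb and Fgb were listed at 0 in all 8 libraries. The hepatocyte list summed to 2.44 to 2.73 TPM in WT and 3.36 to 5 TPM in iKO, and Fga made up most of the iKO sum. Fga rose from 0.873 to 3.28 TPM (limma adjusted p = 0.000126). Apoc3, the only other member that passed the filter, stood at 1.41 TPM in WT and 0.669 TPM in iKO (limma adjusted p = 0.0845). Apoa1, Ahsg, Serpina1a and Tat stayed under 1 TPM.

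**Figure D2:**
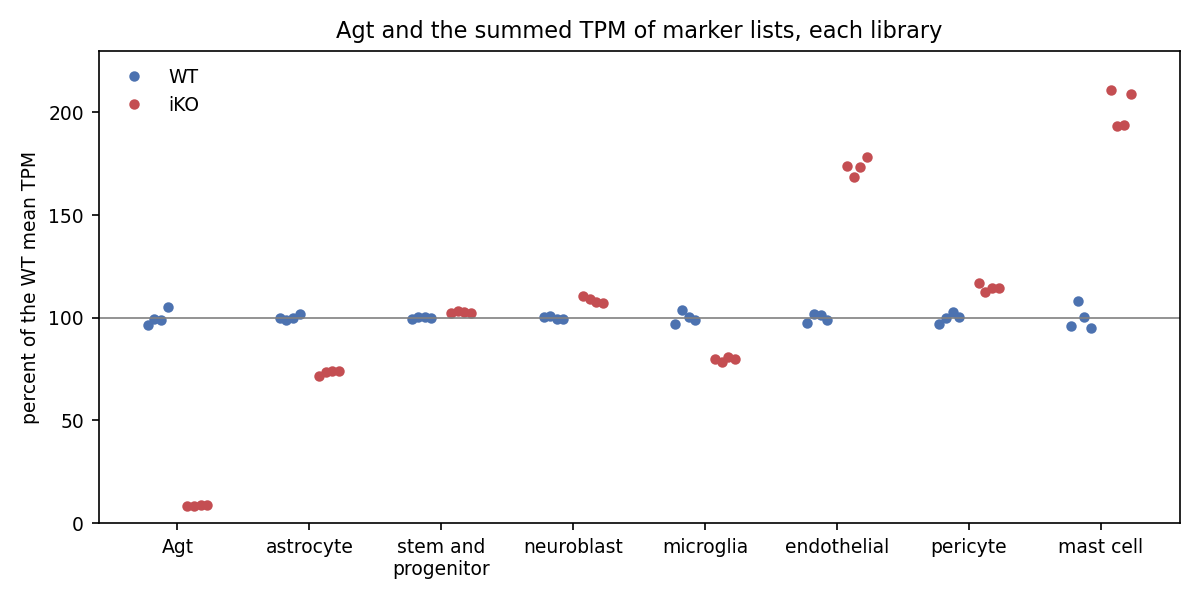
Agt and the summed TPM of 7 marker lists in each library, as a percent of the WT mean of the same quantity, with WT and iKO libraries as separate points. Agt in iKO lies at 8.65% of the WT mean, against 73.5% for the astrocyte list and 103% for the stem and progenitor list.

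Ace, the peptidase that converts angiotensin I to angiotensin II and also degrades bradykinin, was the least abundant of the 7 genes. It stood at 0.518, 0.436, 0.479 and 0.454 TPM in WT replicates 1 to 4 and at 0.263, 0.304, 0.202 and 0.282 TPM in iKO replicates 1 to 4. All iKO values were below all WT values, at 55.7% of the WT mean. In the authors' deposited table the log2 fold change was -0.78 with an SE of 0.329, at a mean normalized signal of only 17. In many tissues ACE is an endothelial enzyme, and endothelial markers went the other way. Of 15 endothelial markers, 13 rose and none fell (0 lower by limma, at an unadjusted p under 0.05 or in the authors' deposited table), and their sum was 671 to 701 TPM in WT and 1159 to 1226 TPM in iKO. Cldn5, which encodes claudin-5 of the blood-brain barrier, rose from 335 to 627 TPM (limma adjusted p = 8.30e-09). Choroid plexus epithelium also contains ACE. Of 4 choroid plexus markers tested, 1 fell and none rose (0 by the same 3 counts; the authors' deposited table called 2 lower), the sum of the 7 listed was 39.4 to 46.4 TPM in WT and 32.5 to 34 TPM in iKO, and Kl, Prlr and Slc4a5 stayed under 1 TPM. For comparison with both lists, 20.7% of all genes tested were called higher and 31.9% lower, a share that 1 fall of 4 does not exceed. The part of endothelial and choroid plexus cells in the Ace values was not tested.

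Agtr1a encodes the main AT1 receptor of rodents. It stood at 3.26, 3.27, 2.71 and 3.24 TPM in WT replicates 1 to 4 and at 1.37, 1.19, 0.943 and 1.18 TPM in iKO replicates 1 to 4. The groups did not overlap, and the iKO mean was 37.5% of the WT mean. The log2(TPM + 1) difference was -0.93 (SE 0.0942), and the authors' deposited table gave -1.33 (SE 0.218) without a pseudocount. Mice have a second AT1 receptor gene, Agtr1b, whose longest coding transcript matched that of Agtr1a at 89.8% identity over 1145 nt, so their reads could be split. Agtr1b stayed at or below 0.481 TPM in every library, and the sum of both genes was 2.87 to 3.58 TPM in WT and 1.21 to 1.67 TPM in iKO.

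A gene of unknown function, Gm48161, lies within an intron of Agtr1a on the same strand and overlaps none of its exons in GENCODE M21. It was looked up because it overlaps Agtr1a. It stood at 146, 153, 154 and 159 TPM in WT replicates 1 to 4 and at 54.8, 60.9, 56.8 and 59.2 TPM in iKO replicates 1 to 4. Gm48161 fell (log2(TPM + 1) difference -1.38, SE 0.0398, limma adjusted p = 3.05e-08), to 37.9% of its WT mean, next to 37.5% for Agtr1a. Its level was 44.7 to 56.6 times that of Agtr1a in WT and 40 to 60.2 times in iKO. How reads were divided between the 2 genes is not given in the sources used here. Pericytes and smooth muscle, which carry AT1 receptors in many vessels, had 5 markers higher and 4 lower of 12 tested. Among all genes tested, 20.7% were called higher and 31.9% lower. The pericyte and smooth muscle list had a sum of 911 to 965 TPM in WT and 1056 to 1097 TPM in iKO. Most of that sum came from Rgs5 and Vtn. Rgs5, a pericyte gene, rose from 363 to 474 TPM (limma adjusted p = 1.33e-06), and Vtn from 385 to 413 TPM. Pdgfrb fell from 18.4 to 14 TPM (limma adjusted p = 9.72e-05) and Acta2 from 16.3 to 12.4 TPM (limma adjusted p = 0.000543). Myh11, which failed the filter, stood at 1.18 TPM in WT and 0.566 TPM in iKO (exact permutation p = 0.0286). The part of these cells in the Agtr1a values was not tested.

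Agtrap encodes a membrane protein that binds the tail of the AT1 receptor and promotes its internalization. It stood at 7.92, 9.09, 8.31 and 8.54 TPM in WT replicates 1 to 4 and at 11.2, 9.18, 10.6 and 8.85 TPM in iKO replicates 1 to 4. The groups overlapped, with means of 8.46 ± 0.488 and 9.96 ± 1.12 TPM (SD, n = 4 each). The authors' deposited table gave the opposite direction for the same libraries, a log2 fold change of -1.004 (SE 0.0879) at a mean normalized signal of 235, whereas the log2 ratio of mean TPM was 0.23. The gap between these 2 measures was 1.24 log2 units. Of 16377 genes with both measures, 29 (0.177%) had a gap at least as large, and the median gap over all genes was -0.08. GENCODE M21 lists 3 Agtrap transcripts of 194 to 3996 nt and no overlapping gene. Which transcripts carried the reads cannot be seen in gene-level values, so no direction is given for Agtrap.

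**Figure D3:**
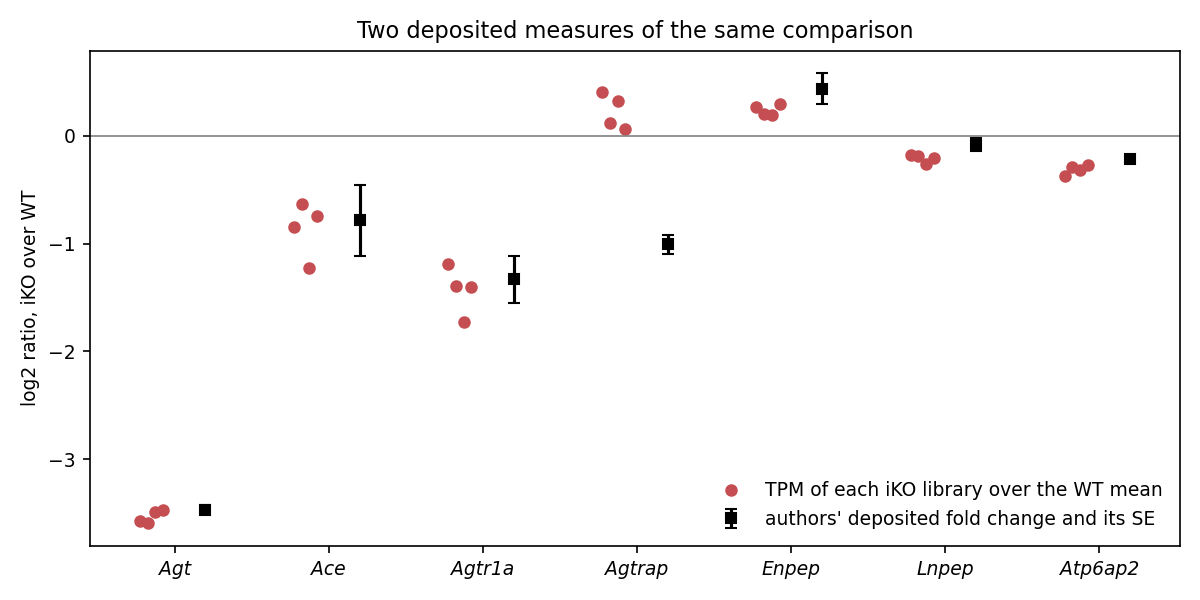
Log2 ratio of iKO over WT for the 7 genes, with red points for the TPM of each iKO library over the WT mean TPM and black squares for the authors' deposited log2 fold change with its SE. For Agtrap the 2 measures lie on opposite sides of 0, 1.24 log2 units apart, and for the other 6 genes they lie on the same side.

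Enpep encodes aminopeptidase A, which removes the first residue of angiotensin II to give angiotensin III. It stood at 2.19, 2.88, 2.05 and 2.52 TPM in WT replicates 1 to 4 and at 2.89, 2.76, 2.76 and 2.95 TPM in iKO replicates 1 to 4. WT replicate 2 lay within the iKO range, and the iKO mean was 118% of the WT mean. Enpep was the most variable of the 7 genes in WT, with a coefficient of variation of 15.4%. Its log2(TPM + 1) difference was 0.18 (SE 0.0919), and the authors' deposited table gave 0.44 (SE 0.142). Aminopeptidase A is abundant in pericytes. By TPM, the summed pericyte and smooth muscle list consisted mostly of Rgs5 and Vtn. Relative to that sum, Enpep stood at 0.212 to 0.306% in WT and 0.256 to 0.274% in iKO, so the ratio overlapped too. Relative to the summed endothelial list it stood at 0.293 to 0.411% in WT and 0.231 to 0.242% in iKO, which did not overlap and was 1.47-fold lower. That sum rested largely on Cldn5, at a mean of 335 of 688 TPM in WT and 627 of 1193 TPM in iKO. The endothelial ratio therefore follows the rise of Cldn5 in large part.

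Lnpep encodes the insulin-regulated aminopeptidase, which binds angiotensin IV and cleaves oxytocin and vasopressin. It stood at 9.65, 8.45, 8.57 and 8.35 TPM in WT replicates 1 to 4 and at 7.75, 7.7, 7.28 and 7.61 TPM in iKO replicates 1 to 4. The groups were close but did not overlap, and the iKO mean was 86.6% of the WT mean. The log2(TPM + 1) difference was -0.18 (SE 0.0587), while the authors' deposited table gave -0.08 (SE 0.0599), a difference of the size of its SE. Quantile normalization also gave a smaller difference, -0.07. In WT, Lnpep and Agtrap did not differ beyond their ranges.

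Atp6ap2 encodes the prorenin receptor, which is also an accessory subunit of the vacuolar proton pump. It stood at 229, 224, 228 and 228 TPM in WT replicates 1 to 4 and at 175, 186, 182 and 189 TPM in iKO replicates 1 to 4. All iKO libraries were lower, at 80.5% of the WT mean, with coefficients of variation of 0.93% in WT and 3.15% in iKO. The log2(TPM + 1) difference was -0.31 (SE 0.0246), and the authors' deposited table gave -0.21 (SE 0.0235). Of 17 other subunit genes of the pump, 8 rose and 4 fell, with a median log2(TPM + 1) difference of 0.08. The shares over all genes tested were 20.7% higher and 31.9% lower. Atp6v0d1 rose from 121 to 168 TPM (limma adjusted p = 4.55e-06) and Atp6v0b from 654 to 903 TPM (limma adjusted p = 3.38e-07). The other accessory subunit, Atp6ap1, fell from 276 ± 9.6 to 232 ± 20.4 TPM (SD, n = 4 each; limma adjusted p = 0.00492). The falls of Atp6v1a and Atp6v1g1 were lost with median-ratio scaling (limma adjusted p = 0.13 and 0.242) and in the authors' deposited table (adjusted p = 0.924 and 0.764). Against the summed pump subunits, Atp6ap2 stood at 6.72 to 6.97% in WT and 4.68 to 5.03% in iKO.

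The order of levels was compared for the 6 genes other than Agtrap. In WT it ran from Agt through Atp6ap2, Lnpep, Agtr1a and Enpep to Ace, and the ranges of Agtr1a and Enpep overlapped. In iKO it ran from Atp6ap2 through Agt, Lnpep, Enpep and Agtr1a to Ace, with no overlap between neighbours. By TPM, Agtrap overlapped Lnpep in WT and lay above it in iKO, at 8.85 to 11.2 against 7.28 to 7.75 TPM, but its place in iKO rests on the measure that the authors' deposited table contradicts. TPM is scaled for length, which allows only a rough comparison of levels between genes in amplified RNA. The place of Agtr1a also depends on how reads were divided between it and Gm48161, which is not given.

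Genes with the most similar profile were found by the Euclidean distance between log2(TPM + 1) values over the 8 libraries, each gene centred on its own mean. Nearest to Agt were Atp5k (distance 0.564), Tmem144 (0.589) and Kcnt1 (0.698), which stood at 198, 50.1 and 18 TPM in WT and at 13.5, 4.26 and 1.28 TPM in iKO. Nearest to Agtr1a were Mtmr11 (0.16), Slc24a4 (0.177) and Ifit2 (0.204), and nearest to Atp6ap2 were Emc8 (0.059), Sfrp1 (0.0592) and Plpp3 (0.0594). The nearest genes were Dcxr, Ccni and Mast1 for Enpep and Tacc1, Npas3 and Nrbf2 for Lnpep, at distances of 0.0761 to 0.139. Low genes are drawn together with smaller changes of abundant ones by the pseudocount: Mtmr11 stood at 83.2 TPM in WT and 42.9 TPM in iKO, while Slc24a4 stood at 3.38 and 1.39 TPM. No neighbours are given for Ace, whose difference moved from -0.22 to -0.66 with a pseudocount of 0.1, or for Agtrap, whose 2 measures differ in sign. Distances over 8 libraries reflect mostly the size of the group difference.

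Of 26 other genes of the pathway, 16 passed the filter, of which 4 rose, 6 fell and 6 did not pass the test, at a median log2(TPM + 1) difference of -0.06. Over all genes 20.7% were called higher and 31.9% lower. Renin itself was close to absent: Ren1 stayed at or below 0.0788 TPM in every library. Among the receptors, Agtr2 stayed at or below 0.0713 TPM, Mas1, the receptor of angiotensin 1-7, stood at 0.147 to 0.422 TPM in WT and 0.26 to 0.768 TPM in iKO (exact permutation p = 0.0857), and Mrgprd was listed at 0 throughout.

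Of the 4 rises, 3 were mast cell proteases. Cma1, a chymase that can cut angiotensin I, stood at 2.51 to 3.7 TPM in WT and 19.8 to 23.1 TPM in iKO (log2(TPM + 1) difference 2.46, SE 0.0923, limma adjusted p = 1.40e-07). Cpa3, a mast cell carboxypeptidase, stood at 6.63 to 7.3 TPM in WT and 32.4 to 37.9 TPM in iKO (limma adjusted p = 1.85e-08). Mcpt4, another chymase, stood at 0.634 to 1.39 TPM in WT and 4.29 to 5.05 TPM in iKO (limma adjusted p = 1.63e-05). All 4 iKO libraries lay above all WT libraries for each of them. Of 9 mast cell markers, a list that includes these 3, 7 were tested, of which 4 rose and 2 fell. Among all genes tested, 20.7% were called higher and 31.9% lower. Besides these 3, Tpsb2 rose from 2.92 to 16.6 TPM (limma adjusted p = 3.28e-07). The falls were of Tpsab1, a tryptase gene, and Hdc, which encodes histidine decarboxylase. The list summed to 53.9 to 61.3 TPM in WT and 110 to 119 TPM in iKO. Hdc alone stood at 32.3 TPM in WT and 28.5 TPM in iKO. The fall of Hdc was lost with median-ratio scaling (limma adjusted p = 0.103), quantile normalization (limma adjusted p = 0.0953) and the replicate block (limma adjusted p = 0.0548), without WT replicate 2 (limma adjusted p = 0.0535) and in the authors' deposited table (adjusted p = 0.301), which leaves 1 fall. The mast cell receptor genes Ms4a2 and Fcer1a stayed at or below 0.51 TPM, and Ms4a2 was listed at 0 in all iKO libraries. The part of mast cells in these rises was not tested. The remaining rise was small: Rnpep, aminopeptidase B, stood at 95.4 ± 3.61 TPM in WT and 104 ± 0.742 TPM in iKO (SD, n = 4 each; limma adjusted p = 0.00607).

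The 6 falls were of peptidases and an uptake receptor. Ctsd, the gene of the lysosomal protease cathepsin D, fell from 139 ± 4.76 to 93.8 ± 6.5 TPM (SD, n = 4 each; limma adjusted p = 1.99e-05), and Ctsa, cathepsin A, from 80.4 to 59.9 TPM (limma adjusted p = 0.000344). Dpp3, a peptidase that degrades angiotensin II, fell from 60.4 to 45.5 TPM (limma adjusted p = 3.67e-05). Prcp, a carboxypeptidase that shortens angiotensin II, fell from 24.5 to 20.9 TPM (limma adjusted p = 0.00387). Nln, neurolysin, fell from 34.3 to 30.3 TPM (limma adjusted p = 0.00678). That call was lost with median-ratio scaling (limma adjusted p = 0.0524) and in the authors' deposited table (log2 fold change -0.05, adjusted p = 0.395). Igf2r, which takes up prorenin through mannose 6-phosphate, stood at 3.75 TPM in WT and 3.1 TPM in iKO (limma adjusted p = 0.0222), a call lost with median-ratio scaling and quantile normalization, and without WT replicate 2, iKO replicate 1 or iKO replicate 4 (limma adjusted p of 0.0517 to 0.254). The peptidase genes Thop1 (28.9 TPM in WT and 29.1 TPM in iKO) and Prep (5.52 TPM in WT and 5.38 TPM in iKO) did not pass. Anpep, aminopeptidase N, stood at 0.948 TPM in WT replicate 4 and at 3.28 to 3.93 TPM in the other WT libraries, and did not pass either (limma adjusted p = 0.705).

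**Figure D4:**
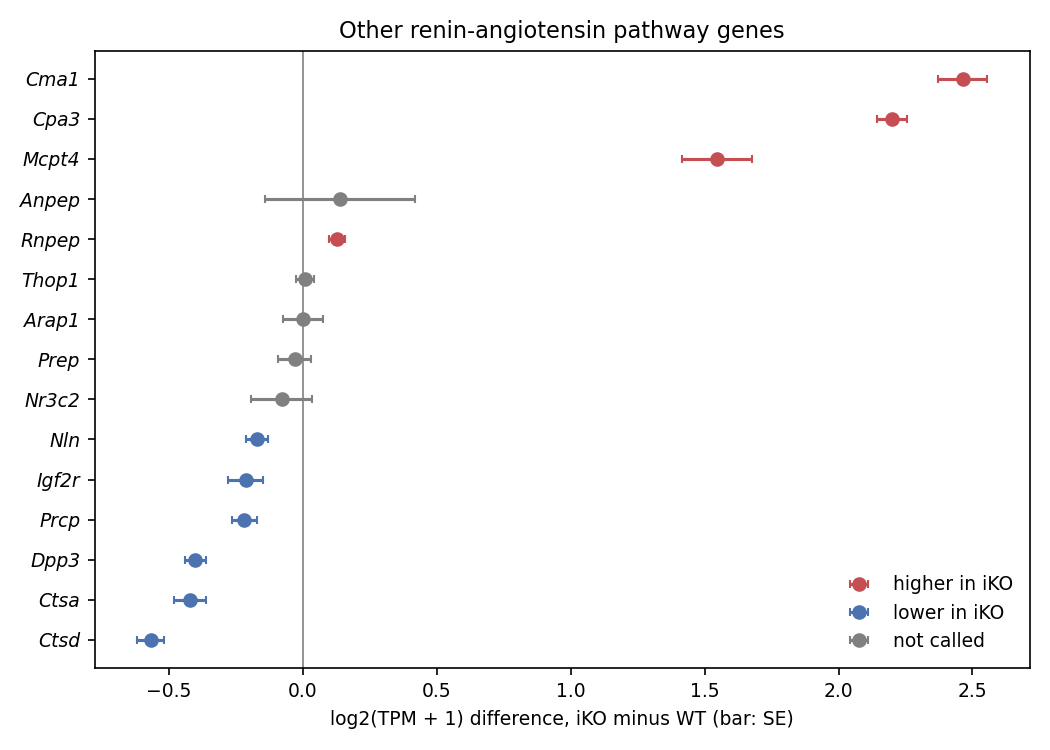
Log2(TPM + 1) difference, iKO minus WT, of 15 of the other pathway genes that passed the filter, with bars for the SE of the limma fit and colours for genes called higher, called lower or not called. Cma1, Cpa3 and Mcpt4 lie between 1.55 and 2.46, and the other 12 genes plotted between -0.57 and 0.14.

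Enpep and Lnpep belong to the M1 family of zinc aminopeptidases. Of 9 other family members 7 were tested, of which 1 rose and 3 fell, where 20.7% of all genes were called higher and 31.9% lower. Erap1, which trims peptides for antigen presentation, fell from 18.8 to 13.2 TPM (limma adjusted p = 0.00118), and Aopep fell from 39.3 to 30.2 TPM (limma adjusted p = 0.00374). Npepps fell from 104 to 89.1 TPM (limma adjusted p = 0.0122), and Lta4h (177 TPM in WT and 166 TPM in iKO) did not pass the test (limma adjusted p = 0.0664). Lta4h passed with quantile normalization (limma adjusted p = 0.00478) and without iKO replicate 2 (limma adjusted p = 0.0413). It also passed in the authors' deposited table (adjusted p = 0.000754), which called 5 of the family lower. With a score of Y-linked genes less Xist as covariate, Lta4h passed (limma adjusted p = 0.0483). Under that covariate the falls of Erap1, Npepps and Aopep lost their calls (limma adjusted p = 0.838, 0.31 and 0.374), and Aopep changed sign. The score did not overlap between the groups, so it cannot be told apart from the group. With it, 423 genes were called instead of 8629, and Ash2l lost its call too (limma adjusted p = 0.142). The lost calls are therefore not particular to these genes.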

How the data were processed

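Sorted NSPC RNA of 4 iKO and 4 WT libraries was amplified by Smart-Seq2 and sequenced as paired ends, per the labels' protocols. The authors deposited TPM per gene and library, and each column summed to 1000000, so depth per library is unknown. The authors' deposited comparison table gave per gene a mean normalized signal, a test score, p-values and the log2 fold change plus standard error, under headings that DESeq2 writes, per the file headers. For the TPM, an aligner, a quantifier and a build were not given in the sources used here. Gene IDs with version matched GENCODE M21 (GRCm38) for 98.4% of rows; the ID of Agt differed in its version.

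Groups and replicate numbers came from the sample titles. Values were tested as log2(TPM + 1) with limma 3.58.1 (R 4.3.3, trend and robust moderation) for genes with at least 1 TPM in at least 4 libraries, with two-sided Benjamini-Hochberg adjustment over all 16413. Fold changes on this scale understate the change of low genes. For genes that failed the filter, the 70 assignments of libraries to groups gave an exact two-sided permutation p, at least 0.0286. The fit was tested on simulated data.

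The 7 genes and all lists were chosen with earlier results of these data known. By rule, named genes were the 7, Ash2l, called pathway genes and up to 8 others, and up to 4 per other list with the smallest p. The rule also named markers at 0 and the 3 nearest profiles per gene without predicted genes (given for 5 of the 7). Gm48161, Agtr1b, the markers Gjb6, S100b, Aldh1l1, Vtn and Myh11, and some list members were named outside that rule, after their values were seen. Some genes within the rule are covered by counts alone, and 1 pathway gene, included in the counts, is not reported here. Further marker lists (neuroblast, fibroblast, microglia, red blood cell) are given in the closing section. Libraries are called biological replicates by the design text; none is tied to an animal, so the spread that p-values measure is that between libraries and may be technical only. Alternatives were 2 other scalings, pseudocounts of 0.1 and 5, filters of none and of mean TPM 5, a replicate block, a sex score as covariate, leaving out each library, and the deposited table. Transcripts were compared with blastn 2.17.0, and figures drawn with matplotlib 3.10.9 in Python 3.11.15.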

Additional observations from a re-analysis of the deposited data

Results flagged for a closer look

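In 61 groups of 4 libraries of the 7 genes, the other pathway genes and Ash2l, 6 had one library far from the rest; chance flags about 1 in 20. For Agtr1a, WT replicate 3 stood at 2.71 TPM against 3.24 to 3.27 TPM in the other WT libraries. For Lnpep, WT replicate 1 stood at 9.65 TPM against 8.35 to 8.57 TPM. The other 4 groups were near 0: Ren1 in WT (0.0788 TPM in replicate 1, 0 elsewhere) and in iKO (0 in replicate 4, at least 0.0704 TPM elsewhere), Mme in iKO (0.104 TPM in replicate 3) and Ctsg in WT (0.412 TPM in replicate 4, 0 elsewhere).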

How the results depend on the processing

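The log2(TPM + 1) difference of Agt was -3.51, and -3.44 with median-ratio scaling, -3.43 with a pseudocount of 5 and -3.22 with the sex score as covariate. Leaving out 1 library gave -3.53 to -3.49. The sex score (mean log2(TPM + 1) of the 4 Y-linked genes less the Xist value) lay between 0.57 and 1.01 in WT and between -0.82 and -0.26 in iKO, so it cannot be told apart from the group. With it as covariate, 423 genes changed instead of 8629, and of the other pathway genes 2 were higher (4 without it) and 0 lower (6 without it); at 0 lower by limma, 3 had an unadjusted p under 0.05, and the authors' deposited table called 7. Aopep turned from -0.37 to 0.35 (limma adjusted p = 0.374) and Hdc, a mast cell marker, from -0.18 to 0.16 (limma adjusted p = 0.711) under that covariate. The cause was not tested. Agtrap turned to -1.004 in the authors' deposited table; the cause was not tested. The share of changed genes that were higher was 39.3% as reported, 50.3% of 8509 with median-ratio scaling, 49.7% of 8418 with quantile normalization and 50.6% of 9969 in the authors' deposited table. Without 1 library, 7808 to 8003 genes changed, 4 pathway genes were higher (lowest 4, highest 4) and 5 to 6 lower. A pseudocount of 0.1 gave -0.66 for Ace and -1.35 for Agtr1a, against -0.22 and -0.93 with 1, and a pseudocount of 5 gave -0.06 and -0.40. Lnpep moved to -0.44 and Enpep to 0.53 with the sex score. Same-numbered libraries did not deviate together over all genes tested (correlations of -0.0445 to 0.000694). A pairing with weak effects, or effects on few genes, would not show in these correlations. With the replicate block 8097 genes changed, Agt kept -3.51, and 4 pathway genes were higher and 6 lower. Igf2r lost its call with that block (limma adjusted p = 0.0634).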

Other observations

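Markers of further cell types differed between the groups, where 20.7% of all genes tested were called higher and 31.9% lower in iKO. Of 10 neuroblast markers, 8 rose and 2 fell, and their sum was 2596 to 2639 TPM in WT and 2799.9 to 2896 TPM in iKO. Of 10 microglia markers, 7 fell and none rose (0 higher by limma, at an unadjusted p under 0.05 or in the authors' deposited table, and 1 higher without WT replicate 1), with sums of 689 to 739 TPM in WT and 557 to 576 TPM in iKO. Of 8 fibroblast markers tested, 3 rose and 3 fell. All 5 red blood cell markers tested rose, and their sum was 69.8 to 81 TPM in WT and 720.1 to 840.1 TPM in iKO. Of 13 stem and progenitor markers tested, 3 rose and 5 fell, but 5 rose and 4 fell with median-ratio scaling or quantile normalization and 6 rose and 4 fell in the authors' deposited table, at sums of 2657 to 2692 TPM in WT and 2736 to 2770.0 TPM in iKO.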
